A study of Mus musculus with 1073 samples.

Results

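Glypicans and syndecans are the cell-surface proteoglycans that carry heparan sulphate chains. The 9 genes described here, *Gpc1*, *Gpc2*, *Gpc3*, *Gpc4*, *Gpc6*, *Sdc1*, *Sdc2*, *Sdc3* and *Sdc4*, were taken as a named list and not by a threshold. *Gpc3* was picked from these data as the top gene of E7.25 cells, although it ranked 50 there by mean level. Of these 9 genes, 8 were among the 15967 genes of the filtered tables, and *Gpc2* was found only in the table of all captured cells. The levels below are therefore a description of the data that led to the choice, and no test was made.

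The study profiled cells of the mouse yolk sac from E7.25 onwards, as far as E10.5, to follow how mesoderm gives rise to blood, endothelium and mesenchyme. Cells were sorted from pooled yolk sacs, captured on the Fluidigm C1 system, and read as full-length cDNA libraries, and 926 of 1073 captured cells passed the filter of the authors. At E7.25 (sequencing lanes of 73 and 74 cells) and E7.75 (sequencing lanes of 53 and 87 cells, 140 in all), embryos carried 1 GFP knock-in allele at *Flk1*, the gene of a VEGF receptor, and GFP+ mesodermal derivatives were sorted after dissociation with trypsin. Later populations came from C57BL/6 embryos after collagenase/dispase digestion, and the *Flk1*-GFP line was kept on the same background. Haematopoietic progenitor/colony forming cells (HPC) were sorted as TER119- CDH5+ CD41+ at E8.25 (73 cells) and E8.5 (89 cells) and as TER119- CDH5- CD45+ CD41low at E9.5 (46 cells) and E10.5 (87 cells). Primitive erythroid cells (EryP) were TER119+ CD41- CDH5- at E8.5 (66 cells), and also CD45- at E10.5 (3 cells). Megakaryocyte lineage cells (Mk) were CD41+ TER119- CDH5- at E8.5 (37 cells) and CD41high TER119- CDH5- CD45- at E10.5 (73 cells). Macrophages (Mac, E10.5, 25 cells) were CD45+ TER119- CDH5- CD41-. Endothelial cells (Endo) were CDH5+ TER119- CD41- at E8.5 (79 cells), and also CD45- at E10.5 (61 cells). In their short labels, the E7.25 cells are also written as E7.5 and the E8.25 HPC as E8.5 precursors of HPC. The stages given here are those of the stage field.

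Each population was treated as 1 sample, because the labels tie no cell to an embryo or pool, so a difference between populations has no replicate check. The cells held 483830 to 5943204 counts each, and the median cell 1887350. The labels name a flow cell and a lane but no capture, so a capture here means the cells of a population on 1 sequencing lane. E7.25 and E7.75 had 2 captures each and the other 11 populations had 1. E10.5 EryP and E10.5 Mac shared lane 5 of their flow cell. Libraries of E7.25, of E8.25 and of E8.5 were run on a different flow cell from those of E7.75, of E9.5 and of E10.5, so between these sets stage and sequencing run cannot be told apart. Between the E7.25 and E7.75 cells and all later populations, stage likewise cannot be told apart from dissociation, the *Flk1*-GFP allele and the sort gate. Sorted populations carried the markers of their labels: the summed erythroid list averaged 108364 CPM in E8.5 EryP, the macrophage list 2961 CPM in Mac, the megakaryocyte list 5523 CPM in E10.5 Mk and the endothelial list 2889 and 5521 CPM in E8.5 and E10.5 Endo. The exception was E8.5 Mk, in which the megakaryocyte list averaged 224 CPM and the erythroid list 34558 CPM. Transcripts of both sexes, with at least 5 counts of *Xist* and 5 of 4 Y-linked genes together, were present in 293 of the 926 cells and in 59 of the 79 E8.5 Endo. Why these cells held both was not tested. No doublet caller was run, and calls that end when these cells are left out are named beside the result.

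Heparan sulphate chains bind growth factors and morphogens of the FGF, Wnt, BMP, Hedgehog and VEGF families and set how these ligands reach their receptors. Glypicans are held to the outer membrane by a lipid (GPI) anchor and can be shed, whereas syndecans span the membrane and contact the cytoskeleton through a short cytoplasmic tail. In the gastrulating embryo, mesoderm requires heparan sulphate for FGF signalling, and in vessels the chains retain VEGF near endothelial cells.

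*Gpc3* (ENSMUSG00000055653) lies on the minus strand of the X chromosome at chrX:52272426-52613950 (GRCm38). *Gpc4* lies beside it on the same strand at chrX:52053021-52165252. The 250 bases before a start site in RefSeq (GRCm38.p6) were available for 6 of the 9 genes. They are shown for *Gpc3* and *Sdc3*, the most and the least abundant measured members at E7.25 per length, whose windows hold no annotated exon. Capitals mark GGGCGG or its reverse complement CCGCCC, the GC box, searched on both strands.
Gpc3, chrX:52613975-52614224, minus strand: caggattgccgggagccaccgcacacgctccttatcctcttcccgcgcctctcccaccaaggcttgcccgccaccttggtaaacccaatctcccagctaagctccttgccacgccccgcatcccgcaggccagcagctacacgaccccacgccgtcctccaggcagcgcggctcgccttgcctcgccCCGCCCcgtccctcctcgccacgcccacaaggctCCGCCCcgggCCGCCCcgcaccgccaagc
Sdc3, chr4:130792287-130792536, plus strand: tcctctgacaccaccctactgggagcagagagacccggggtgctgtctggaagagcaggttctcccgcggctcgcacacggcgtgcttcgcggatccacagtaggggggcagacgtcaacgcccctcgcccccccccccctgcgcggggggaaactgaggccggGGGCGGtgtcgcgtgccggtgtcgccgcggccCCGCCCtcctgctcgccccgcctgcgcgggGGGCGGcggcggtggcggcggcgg
Both windows hold 3 GC boxes, and their GC content is 71.6% for *Gpc3* and 76.4% for *Sdc3*, against a median of 52.4% over 32851 windows of the same length. At least 1 GC box was present in 32.7% of all windows. The TATA box TATAAA, searched on both strands, was in neither window and in 12.4% of all windows. The same held for the GATA motif AGATAA, in 9.99% of all windows, and for the E-box CAGGTG, in 17.2%. These matches are letters in a window and do not separate the most from the least abundant member.

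**Figure D1:**
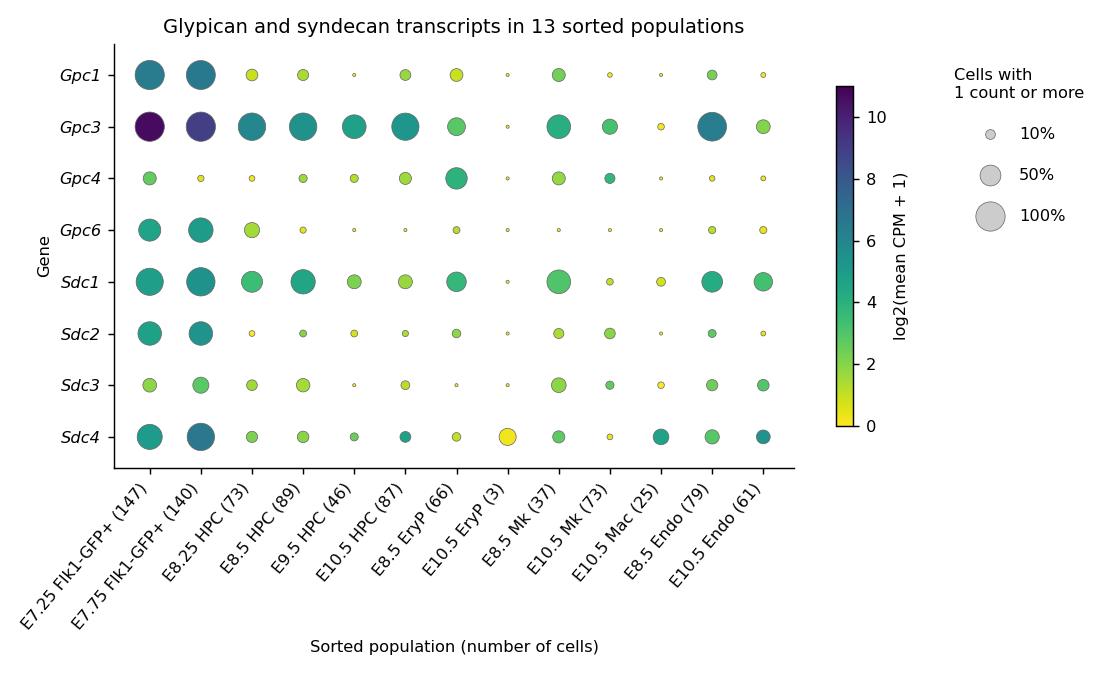
Levels of the 8 measured genes (rows) in the 13 populations (columns, with the number of cells). Colour gives log2(mean CPM + 1) and area the percent of cells with 1 count or more. *Gpc1*, *Gpc6*, *Sdc2* and *Sdc4* were detected in more than 50% of cells at E7.25 and E7.75 and in no later population, *Gpc3* remained in most HPC, and *Gpc4* reached 53.0% in E8.5 EryP; the *Sdc4* dot of E10.5 EryP is 1 of 3 cells.

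*Gpc3*, whose loss in humans causes an overgrowth syndrome and which restrains growth signalling, was the most abundant member at the start of the series and was lower in every later population. At E7.25 it was detected in every cell (exact 95% interval 97.5% to 100%) at a mean of 1638 CPM, with a median of 1563 CPM and quartiles of 1011 and 2152 CPM. At E7.75 it was again detected in every cell (140 of 140, 97.4% to 100%), at a mean of 499 CPM, a median of 474 CPM and quartiles of 218 and 689 CPM. By mean level it ranked 50 among the 15967 genes in E7.25 cells and 273 in E7.75 cells. The lowest E7.25 cell was at 149.8 CPM, and 26 of the 140 E7.75 cells lay below it, while only 1 reached the E7.25 median. Intervals here cover counting error over cells only, and reads were not collapsed to molecules.

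Captures of the same stage were alike for *Gpc3*. Means were 1591 CPM (73 cells) and 1684 CPM (74 cells) in the E7.25 captures, and 483 CPM (53 cells) and 509 CPM (87 cells) in the E7.75 captures. The log2 ratio of mean CPM + 1, E7.75 over E7.25, was -1.71, or 3.28-fold lower, and -2.09 to -1.64 over 12 alternatives, which include every pairing of the captures. The difference between stages was thus larger than that between captures, but stage and flow cell cannot be told apart here.

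After E7.75, *Gpc3* persisted at lower levels in endothelium and HPC and was nearly absent from macrophages. Its mean was 82.2 CPM in E8.5 Endo, 58.3 CPM in E8.25 HPC, 43.2 CPM in E8.5 HPC, 36.6 CPM in E10.5 HPC and 25.2 CPM in E9.5 HPC. It was 15.5 CPM in E8.5 Mk, 8.22 CPM in E10.5 Mk, 6.27 CPM in E8.5 EryP, 3.07 CPM in E10.5 Endo and 0.102 CPM in Mac. It was not detected in the 3 E10.5 EryP. In this order, the interquartile ranges of neighbours were apart only between E7.25 and E7.75 and between E7.75 and E8.5 Endo, so 9 of the 11 neighbouring pairs overlapped.

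Detection followed the same course. *Gpc3* was found in 96.2% of E8.5 Endo (76 of 79, 89.3% to 99.2%), 87.7% of E8.25 HPC, 87.6% of E8.5 HPC and 86.2% of E10.5 HPC (75 of 87, 77.1% to 92.7%). It was found in 65.2% of E9.5 HPC (30 of 46, 49.8% to 78.6%), 64.9% of E8.5 Mk, 36.4% of E8.5 EryP, 26.0% of E10.5 Mk and 21.3% of E10.5 Endo (13 of 61, 11.9% to 33.7%). Among populations of at least 25 cells, the lowest share was 4.00% of Mac, where 1 of 25 cells held all 14 counts. The median depth was 3422340 counts in Mac, 1943900 in E10.5 Endo and 1609580 in E10.5 HPC. When every cell was thinned to 840000 counts, shares were 94.9%, 84.5%, 60.0% and 21.1% in E8.5 Endo, E10.5 HPC, E9.5 HPC and E10.5 Endo. The interval of E10.5 Endo lies far below that of E8.5 Endo. Cells at 100 CPM or more made up 85.7% of E7.75 cells, 30.4% of E8.5 Endo, 26.0% of E8.25 HPC and 8.05% of E10.5 HPC.

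**Figure D2:**
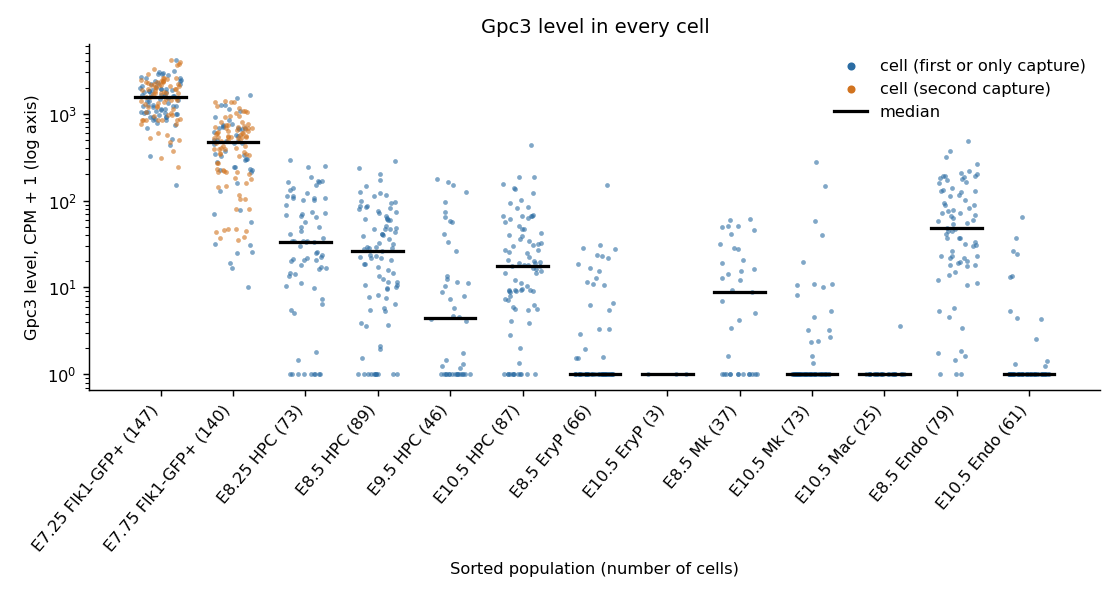
*Gpc3* level in each of the 926 cells, as CPM + 1 on a log axis, by population; points at 1 are cells without a count, black bars are medians, and orange marks the second capture of E7.25 and E7.75. E7.25 cells lie between 149.8 and 4194 CPM, and no E10.5 Endo exceeds 64.2 CPM.

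*Gpc1* (chr1:92831645-92860779), a glypican that presents FGF and other ligands, was restricted to the E7 mesodermal derivatives in a way *Gpc3* was not. It was detected in all but 1 of the E7.25 cells (99.3%) at a mean of 86.0 CPM (median 63.6 CPM), and in all but 3 of 140 E7.75 cells (97.9%) at 93.2 CPM (median 74.9 CPM). Captures gave 79.3 and 92.7 CPM at E7.25 and 93.9 and 92.8 CPM at E7.75. From E8.25 on, shares lay between 0% and 18.9% and means between 0 and 4.03 CPM. The median was 0 in all 11 later populations. No count was found in 46 E9.5 HPC, which allows a share of up to 6.52%, or in 25 Mac, which allows up to 12.0%. The exons of *Gpc1* overlap those of *Ankmy1* on the other strand, itself detected in 2 of the 1073 captured cells. For *Gpc1*, and for *Gpc6* and *Sdc2* below, stage cannot be told apart from dissociation, the *Flk1*-GFP allele and the gate in this restriction.

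*Gpc6* (chr14:116925315-117976544), known to promote Hedgehog signalling in growing cartilage, had the same restriction at a lower level. It was found in 56.5% of E7.25 cells (48.0% to 64.6%) and 69.3% of E7.75 cells (60.9% to 76.8%), with means of 23.5 and 30.2 CPM but medians of 0.930 and 6.87 CPM. At E7.25 the 15 highest cells held 68.5% of its summed CPM, and the highest cell reached 898 CPM. In E8.25 HPC it was still found in 26.0% of cells at 1.92 CPM, but 10 counts or more were present in only 4.11%. In later populations shares were at most 5.06%. It had no count in E9.5 HPC, E10.5 HPC, E8.5 Mk, E10.5 Mk and Mac, with upper limits of 3.45% (E10.5 HPC) to 12.0% (Mac).

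*Gpc4*, which modulates Wnt and FGF signals and is the chromosomal neighbour of *Gpc3*, was arranged differently. Its share was highest in E8.5 EryP, at 53.0% (35 of 66 cells, 40.3% to 65.4%), with a mean of 14.1 CPM and a maximum of 172 CPM. It was 19.0% at E7.25 (28 cells, 13.0% to 26.3%), 18.9% in E8.5 Mk, 16.1% in E10.5 HPC, and 3.57% at E7.75 (5 of 140, 1.17% to 8.14%). In the other populations with at least 25 cells, it was at most 11.0%. Thinning left 48.5% of E8.5 EryP with a count. The interval of E8.5 EryP did not overlap that of any other population with at least 25 cells. *Gpc3* was lower than *Gpc4* in E8.5 EryP, at 6.27 CPM, and these cells were the only population of at least 25 cells besides E10.5 Mk in which *Gpc3* gave less than 50% of summed glypican CPM (27.8% and 39.8%). In E10.5 Mk this rested on 1 cell with 890 CPM of *Gpc4*, and *Gpc3* gave 97.01% without it, against 31.3% in E8.5 EryP without the cell highest in *Gpc4*.

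Erythroid cells with and without *Gpc4* were close in depth and in globin-rich markers. The 35 cells with counts had a median total of 2013220 counts and a median erythroid sum of 104524 CPM, and the 31 cells without had 2126480 counts and 102648 CPM. Macrophage and megakaryocyte lists had medians of 0 in both sets. The endothelial list had a median of 7.78 CPM in cells with *Gpc4* and 0.704 CPM in cells without, and its part in the result was not tested.

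The second highest mean of *Gpc4*, 12.4 CPM in E10.5 Mk, came from 1 cell of 73 at 890 CPM, with the next cell at 5.22 CPM and a mean of 0.206 CPM without it.

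*Gpc2*, mainly known from developing neurons, was found in 7 of the 1073 captured cells with 59 counts in all, and 35 of them were in 1 E10.5 HPC.

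*Sdc1* (chr12:8771323-8793715), a syndecan of epithelia and plasma cells, was the most widely detected syndecan. At E7.25 it was found in 85.7% of cells (79.0% to 90.9%) at a mean of 28.4 CPM and a median of 12.5 CPM. At E7.75 it was found in 93.6% (88.1% to 97.02%) at a mean of 41.6 CPM and a median of 26.0 CPM. Afterwards it was seen in all lineages at E8.5, in 68.5% of HPC (57.8% to 78.0%, 22.4 CPM), 64.9% of Mk (7.10 CPM), 49.4% of Endo (17.5 CPM) and 43.9% of EryP (11.8 CPM). By E9.5 and E10.5, shares were 21.7% and 21.8% in HPC, 4.11% in Mk and 8.00% in Mac. E10.5 Endo was at 39.3% (27.1% to 52.7%), an interval that overlaps that of E8.5 Endo (37.9% to 60.9%).

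*Sdc2* (chr15:32920723-33034935), implicated in sprouting of vessels, followed *Gpc1* and *Gpc6*. It was found in 64.0% of E7.25 cells (55.6% to 71.7%, 26.3 CPM) and 64.3% of E7.75 cells (55.8% to 72.2%, 39.5 CPM), with medians of 6.87 and 4.42 CPM. In the later populations its shares were between 0% and 12.3%. In both endothelial populations it was rare, at 6.33% of E8.5 Endo and 1.64% of E10.5 Endo. The mean of 5.57 CPM in E8.5 Endo fell by more than 1.5 times, to 1.61 CPM, without its highest cell.

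*Sdc4* (chr2:164424247-164443887), which acts with integrins at focal adhesions, was highest at E7.75. It was found in 72.8% of E7.25 cells (64.8% to 79.8%) at a mean of 31.3 CPM and a median of 20.3 CPM, and in 87.1% of E7.75 cells (80.4% to 92.2%) at 99.6 CPM and 52.8 CPM. Captures differed more than for *Gpc3*, with means of 18.8 and 43.6 CPM at E7.25 and of 128.05 and 82.3 CPM at E7.75. In every later population the median was 0. At E10.5 its signal lay in a few cells with high values: 7 of 25 Mac (28.0%, 12.1% to 49.4%, 24.3 CPM), 13 of 61 Endo (21.3%, 40.1 CPM) and 11 of 87 HPC (12.6%, 24.7 CPM). The HPC mean dropped to 4.96 CPM without the highest cell, which was at 1725 CPM, and the Endo mean to 25.0 CPM without a cell at 945 CPM. The Mac mean was 17.8 CPM without its highest cell. The 7 Mac with *Sdc4* had a median total of 5251640 counts and the 18 without had 2702310, and after thinning 20.0% of Mac kept a count.

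*Sdc3* (chr4:130792537-130826319), the syndecan of neural tissue, stayed below 10 CPM in all 13 populations. Its highest mean was 7.02 CPM in E10.5 Endo, where 9 of 61 cells had counts. Without the highest cell, at 213 CPM, that mean was 3.59 CPM, below the 5.23 CPM of E7.75 without its own highest cell. Its largest share was 29.3% at E7.75 (41 of 140, 21.9% to 37.6%, 6.09 CPM). Among 66 E8.5 EryP none had a count, for an upper limit of 4.55%, and none of the 46 E9.5 HPC did.

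**Figure D3:**
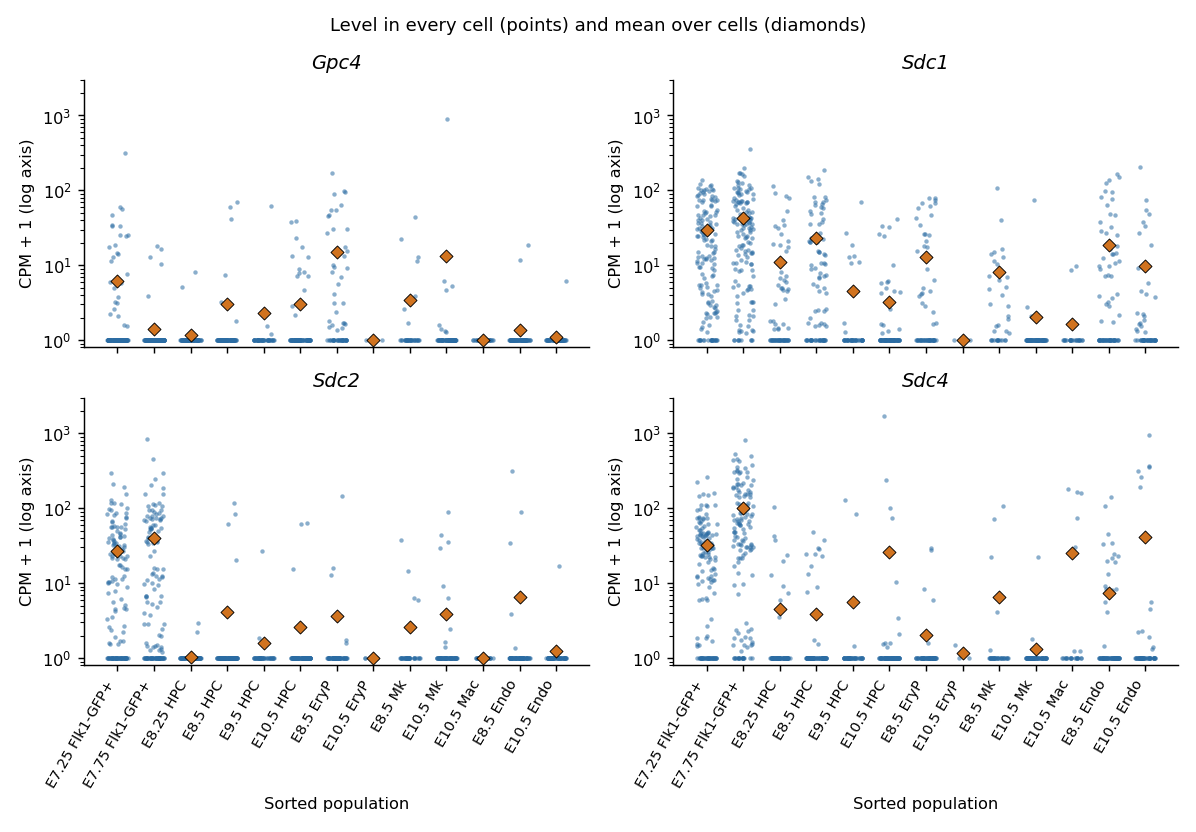
Level of *Gpc4*, *Sdc1*, *Sdc2* and *Sdc4* in every cell (points, CPM + 1, log axis) by population, with the mean over cells as an orange diamond. *Sdc4* means near 24 to 40 CPM in E10.5 HPC, Mac and Endo come from 11, 7 and 13 cells, while most cells lie at 0.

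Set side by side per kilobase of exon, *Gpc3* exceeded every other member at E7.25 and at E7.75. At E7.25 its level was 609 CPM per kilobase, followed by *Gpc1* at 16.7, *Sdc4* at 12.3, *Sdc2* at 7.45, *Sdc1* at 7.44, *Gpc6* at 3.65, *Gpc4* at 1.96 and *Sdc3* at 0.469. At E7.75 *Gpc3* was at 186 CPM per kilobase and *Sdc4*, at 39.1, stood above *Gpc1*, at 18.1. In E10.5 Endo *Sdc4*, at 15.7 CPM per kilobase, stood above *Gpc3*, at 1.14. Each was detected in 21.3% of these cells, and the 7 highest cells held 99.7% of the summed *Sdc4* CPM. Summed per kilobase, glypicans were at 631 and syndecans at 27.6 at E7.25, and at 1.22 and 19.3 in E10.5 Endo.

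Fewer members were found per cell after E7.75. A median of 5 members was detected at E7.25 (range 2 to 7) and 6 at E7.75 (range 3 to 8), against 1 or 2 in the later populations of at least 25 cells other than Mac, where it was 0. Cells with no member at all were absent at E7.25 and E7.75 and made up 1.37% of E8.25 HPC, 2.25% of E8.5 HPC, 28.3% of E9.5 HPC, 6.90% of E10.5 HPC, 46.6% of E10.5 Mk and 64.0% of Mac, so that E10.5 HPC lay below E9.5 HPC. At least 1 syndecan was found in 97.96% and 98.6% of cells at the 2 early stages and in 63.3% and 60.7% of E8.5 and E10.5 Endo.

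Ratios between populations were taken for genes with a mean of at least 10 CPM on either side, and 2-fold or more counted as a call. Between E7.25 and E7.75, 6 members could be compared. *Gpc3* was 3.28-fold lower at E7.75 and *Sdc4* was 3.12-fold higher, a log2 ratio of 1.64, while *Gpc1*, *Gpc6*, *Sdc1* and *Sdc2* lay between 0.11 and 0.57 on the log2 scale. Among all 8888 genes compared, 4.92% were 2-fold or more higher and 5.46% lower. The median log2 ratio was 0.45 over the 6 members and 0.04 over all. For *Sdc4* the pairings of captures gave log2 ratios from 0.90 to 2.71, and the lowest of them, the second captures of each stage, was below 2-fold. The visceral endoderm list, which could bring in yolk sac cells other than mesoderm, summed to a mean of 0.867 and 1.79 when counts were scaled per 1e6, with *Hnf4a* at 0 at both stages and *Afp* at 0 at E7.25. Mesenchymal genes summed to means of 217 CPM at E7.25 and 581 CPM at E7.75, and mesodermal genes to 587 and 310 CPM. Their part in the *Gpc3* and *Sdc4* differences was not tested.

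**Figure D4:**
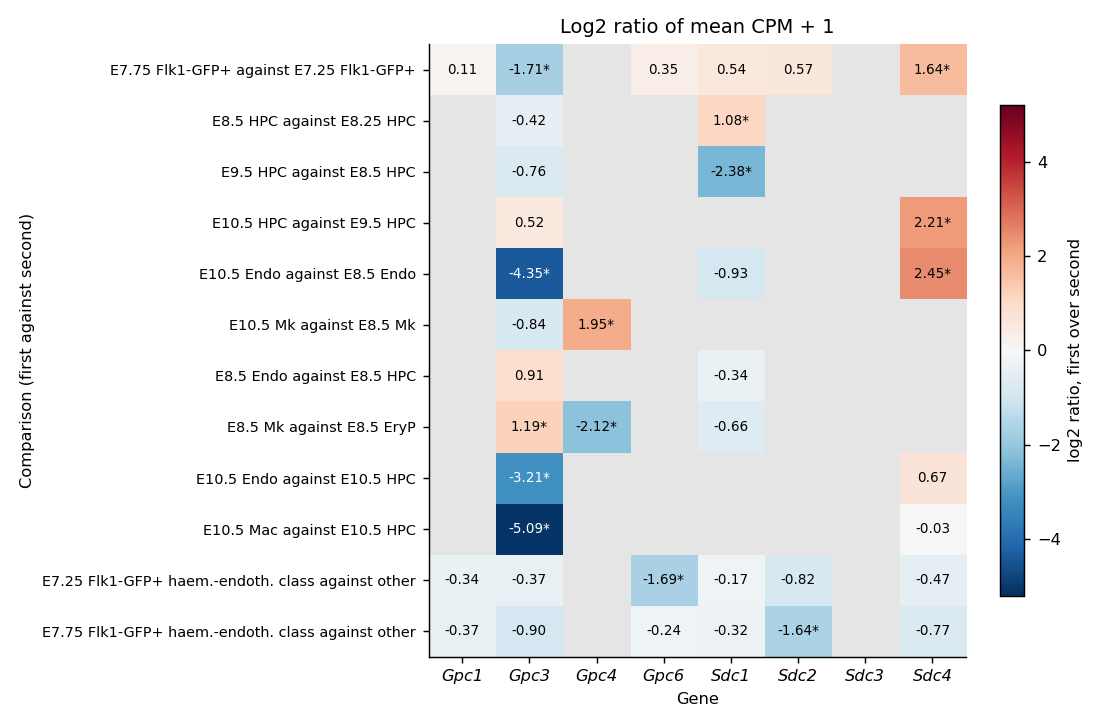
Log2 ratio of mean CPM + 1 (first over second population) for each member and comparison, with red for higher and blue for lower in the first; an asterisk marks 2-fold or more, and grey cells had less than 10 CPM on both sides. *Gpc3* was 2-fold or more lower in 4 comparisons and higher in 1, and *Sdc3* reached 10 CPM in none.

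Among HPC of successive stages, *Sdc1* and *Sdc4* passed 2-fold, and *Gpc3* did so only under some alternatives. From E8.25 to E8.5, *Sdc1* was 2.12-fold higher (22.4 against 10.1 CPM), with 2.86% of 8879 genes higher and 3.82% lower. This call was lost without the cells with transcripts of both sexes. From E8.5 to E9.5, *Sdc1* was 5.19-fold lower (3.52 against 22.4 CPM, log2 ratio -2.38), among 13.1% of 9250 genes lower and 11.5% higher. The share of cells with *Sdc1* was 68.5% before and 21.7% after, and the intervals were apart. The gate also changed between these stages, from CDH5+ to CDH5- CD45+, and the flow cell with it. From E9.5 to E10.5, *Sdc4* was 4.63-fold higher, among 5.86% of 9050 genes higher and 8.73% lower, but without the highest cell of each population its means were 4.96 and 1.85 CPM, under the level needed for a call. *Gpc3* had log2 ratios of -0.42, -0.76 and 0.52 over these 3 steps. From E8.5 to E9.5 it passed 2-fold with means of log2 values (-1.73) and without the cells with transcripts of both sexes (-1.04), and from E9.5 to E10.5 with means of log2 values (1.39).

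In endothelial cells, *Gpc3* was high at E8.5 and low at E10.5. It was 20.4-fold lower at E10.5 (3.07 against 82.2 CPM, log2 ratio -4.35, -4.88 to -2.82 over 8 alternatives), where 16.4% of 9938 genes were lower and 21.2% higher. *Sdc4* was 5.47-fold higher on means (40.1 against 6.50 CPM), yet it was detected in 21.3% and 22.8% of cells, and the ratio of mean log2 values was only 0.06. Cells with 10 counts or more of *Sdc4* made up 9.84% of E10.5 and 19.0% of E8.5 Endo. At E10.5 the 7 highest cells held 99.7% of its summed CPM, so the higher mean lay in a few cells with high values. *Sdc1* was at 8.71 and 17.5 CPM, below 2-fold, but at 5.42 and 15.7 CPM without the highest cell of each population, a log2 ratio of -1.38 and past 2-fold. *Sdc3*, under 10 CPM on both sides, passed without the cells with transcripts of both sexes (log2 ratio 1.52). The median log2 ratio was -0.93 over these 3 members and 0.06 over all genes. Transcripts of both sexes were found in 59 of 79 E8.5 Endo and 26 of 61 E10.5 Endo, and the *Gpc3* call was kept without them. Endothelial genes summed to means of 2889 and 5521 CPM at E8.5 and E10.5. Mesenchymal genes summed to means of 104.2 and 169.5 CPM but to medians of 54.5 and 0 CPM. The highest E10.5 cell for the mesenchymal list was at 6441 CPM. The part of these lists in the *Gpc3* difference was not tested. Visceral endoderm genes were found in 31.6% of E8.5 and 18.0% of E10.5 Endo. Of the 8 listed genes, 7 were detected at E8.5 (all but *Hnf4a*) and 5 at E10.5 (all but *Afp*, *Apob* and *Amn*). In plain CPM the list summed to means of 16.8 at E8.5 and 9.63 at E10.5, with highest cells at 210 and 363. The next highest mean of a population was 3.65, in E8.5 HPC. The part of these genes in the *Gpc3* difference was not tested.

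In the megakaryocyte lineage, 2 members could be compared between E8.5 and E10.5. *Gpc4* was 3.85-fold higher on means, among 16.3% of 8983 genes higher and 12.7% lower, but this rested on the cell at 890 CPM and the log2 ratio became -0.97 without the highest cells. *Gpc3* was at 8.22 against 15.5 CPM, a log2 ratio of -0.84, and its share went from 64.9% to 26.0%, with intervals of 47.5% to 79.8% and 16.4% to 37.6% that were apart. Without the highest cell of each population *Gpc3* was at 4.53 against 14.3 CPM, a log2 ratio of -1.46 and past 2-fold, as it was with means of log2 values (-1.82). E8.5 Mk also carried erythroid transcripts at 34558 CPM on average, and E10.5 Mk at 331 CPM, and the part of these in the values was not tested.

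Populations of the same stage were compared within a flow cell. E8.5 Endo and E8.5 HPC shared the E8.5 HPC with the comparisons above. No member passed 2-fold between them, with *Gpc3* at 82.2 and 43.2 CPM and *Sdc1* at 17.5 and 22.4 CPM, while 17.9% of 9433 genes were higher in Endo and 10.4% lower. *Gpc3* passed 2-fold when cells with transcripts of both sexes were left out (log2 ratio 1.25) and with means of log2 values (1.05). E8.5 Mk had 2.27-fold more *Gpc3* than E8.5 EryP (15.5 against 6.27 CPM) and 4.34-fold less *Gpc4* (2.48 against 14.1 CPM), where 14% of 8651 genes were higher in Mk and 8.54% lower. The neighbouring X-linked genes thus differed in opposite directions between these populations, and both differences remained in the thinned cells. With a pseudocount of 10 both fell below 2-fold (log2 ratios 0.65 and -0.95), and *Gpc3* did not reach 3-fold. The erythroid list summed to a mean of 34558 CPM in these Mk and 108364 CPM in EryP, and its part in the values was not tested. *Sdc1*, at 7.10 and 11.8 CPM, passed 2-fold only without the highest cell of each population (4.37 against 10.8 CPM, log2 ratio -1.14).

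At E10.5, HPC were the shared reference of 2 comparisons. *Gpc3* was 9.25-fold lower in Endo than in HPC (3.07 against 36.6 CPM), among 20.4% of 10248 genes lower and 30.4% higher. It was 34.1-fold lower in Mac (0.102 against 36.6 CPM), among 24.4% of 9300 genes lower and 22.4% higher. *Sdc4* had log2 ratios of 0.67 in Endo and -0.03 in Mac against HPC. Without the highest cell of each population these became 2.12 and 1.65, past 2-fold, because the HPC mean rests on its highest cell. Without the cells with transcripts of both sexes, *Sdc1* and *Sdc3* also passed 2-fold in Endo, with log2 ratios of 2.10 and 2.31.

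Within each early stage, the haemato-endothelial class was defined by 6 genes other than the members (*Tal1*, *Lmo2*, *Hhex*, *Fli1*, *Gata2*, *Kit*), and a cell with 4 or more of them detected belonged to it. At E7.25, the 86 cells of the class and the 61 others had *Gpc3* means of 1460 and 1889 CPM. The corresponding 91 and 49 cells at E7.75 had 383 and 716 CPM. Log2 ratios were -0.37 and -0.90, and captures gave 1475 against 1843 and 1438 against 1917 CPM at E7.25, and 345 against 751 and 406 against 695 CPM at E7.75. The class was lower in all 4 captures. At E7.75 the difference passed 2-fold in the first capture (log2 ratio -1.12) and with means of log2 values (-1.35). *Gpc3* medians at E7.75 were 950, 496, 663, 470, 520 and 214 CPM in cells with 1, 2, 3, 4, 5 and 6 of the genes.

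*Gpc6* was 3.22-fold lower in the E7.25 class (11.7 against 40.0 CPM), among 3.54% of 8710 genes lower and 4.75% higher, while its share was alike (57.0% and 55.7%). The mean of the other cells was 25.7 CPM without their highest cell, and medians differed the other way, at 1.25 CPM in the class and 0.849 CPM in the others. The call was lost with means of log2 values (log2 ratio -0.34) and without the cells with transcripts of both sexes (-0.76). *Sdc2* was 3.11-fold lower in the E7.75 class (22.3 against 71.4 CPM, 58.2% against 75.5% of cells), among 8.06% of 9012 genes lower and 5.42% higher. Captures differed, with 17.7 against 135.9 CPM in the first and 25.2 against 34.0 CPM in the second, where it was below 2-fold. All 6 members compared had lower means in the class at both stages, with median log2 ratios of -0.42 and -0.57, against 0.01 and -0.08 over all genes. The share of all genes with any lower mean in the class is not given here. Besides *Gpc6* at E7.25, *Sdc1* at E7.75 had a higher median in the class, at 28.3 against 22.0 CPM. In single captures the mean was lower in the class for every one of the 6 at E7.75 but not at E7.25. There *Gpc1* was at 58.8 against 123.8 CPM in the first capture and at 103.05 against 82.9 CPM in the second, and *Sdc1* was at 24.9 against 38.2 CPM and at 29.6 against 25.7 CPM. Mesenchymal genes also summed to lower means in the class, at 182 against 265 CPM at E7.25 and 452 against 820 CPM at E7.75. Their part in the differences was not tested. *Sdc3*, below 10 CPM and not compared, was found in 26.7% of the class and 13.1% of the others at E7.25, and in 36.3% and 16.3% at E7.75, with the higher share in the class in all 4 captures.

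**Figure D5:**
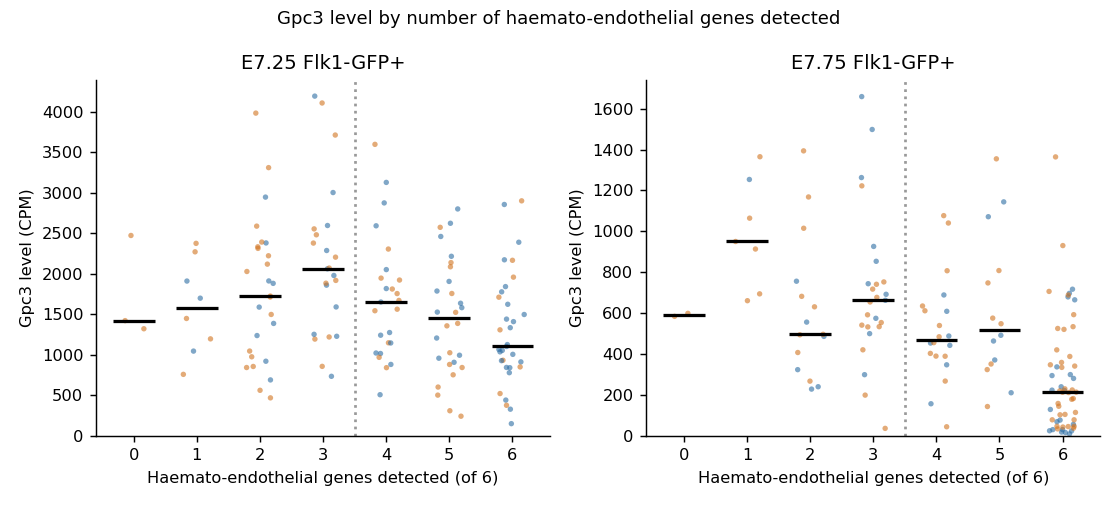
*Gpc3* level (CPM, linear axis) against the number of the 6 haemato-endothelial genes detected in a cell, at E7.25 (left) and E7.75 (right); points are cells, blue and orange are the captures, bars are medians, and the dotted line separates the class (4 or more). In E7.75 cells with all 6 genes the median is 214 CPM (57 cells).

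Within a population, members varied largely apart. At E7.75, Spearman correlations over 140 cells, which share captures and scaling, were 0.43 for *Gpc3* and *Sdc4*, 0.41 for *Gpc1* and *Gpc3*, and 0.32 for *Sdc2* and *Sdc4*. In the separate captures these were 0.42 and 0.47, 0.50 and 0.33, and 0.30 and 0.32. At E7.25 the largest was 0.28, for *Gpc1* and *Sdc4*, but it was 0.07 in the first capture and 0.40 in the second, between which the *Sdc4* means also differed (18.8 and 43.6 CPM). *Gpc3* with *Sdc4* was at 0.08. Correlations of *Gpc3* with total counts were 0.05 and 0.03 at these stages.

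Since *Gpc3* and *Gpc4* are X-linked, their levels were set beside the sex transcripts. At E10.5, 20 HPC with *Xist* and no Y-linked counts had a *Gpc3* mean of 41.9 CPM and a median of 9.89 CPM, and 14 HPC with Y-linked counts and no *Xist* had 21.8 and 16.8 CPM. Mean and median thus differed in opposite directions. At E7.75, 43 *Xist* cells and 56 Y cells had *Gpc3* means of 522 and 506 CPM. All 43 *Xist* cells came from the capture on lane 8 and 52 of the 56 Y cells from that on lane 7, so sex transcripts and capture cannot be told apart at E7.75. In E10.5 Mk, *Gpc3* was found in 34.4% of 32 *Xist* cells and 15.4% of 13 Y cells, with medians of 0 in both. *Gpc4* was at 1.02 CPM in *Xist* and 3.80 CPM in Y cells of E10.5 HPC (10% and 28.6% of cells). Its means were 0.392 and 0.166 CPM at E7.75 and 0.143 and 0 CPM in E10.5 Mk, and all its medians were 0.

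The genes most like *Gpc1*, *Gpc3* and *Sdc4* in their pattern were found by Pearson correlation of log2(mean CPM + 1) over the 12 populations of at least 25 cells, among 7221 other genes with at least 50 CPM in at least 1 of them. For *Gpc1* these were *Vcan*, which encodes the matrix proteoglycan versican (r = 0.98), *Crb2* (0.96) and *Car14* (0.94). For *Gpc3* they were *Ift74* (0.93), *Phax* (0.92) and *Greb1* (0.91). Correlation does not measure range: *Phax* means lay between 52.0 CPM (E10.5 Endo) and 151.05 CPM (E7.75), against 0.102 to 1638 CPM for *Gpc3*. For *Sdc4* they were *Ptprs*, a phosphatase receptor that binds heparan sulphate (0.93), the predicted gene *Gm5566* (0.85) and *Asxl1* (0.83). Means of *Gm5566* lay between 24.9 and 62.9 CPM and those of *Asxl1* between 21.1 and 72.1 CPM, against 0.306 to 99.6 CPM for *Sdc4*. *Gpc1* and *Gpc3* had r = 0.87, and *Gpc3* and *Sdc4* 0.32. The 12 points share flow cells and stages, and no p is given.

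Other genes of the pathway were read from lists. Of 27 genes that build or sulphate the chain, 19 were in the filtered table, along with 3 of 4 genes that remove sulphates or release the proteoglycan, 5 of 5 other heparan sulphate proteoglycans and 3 of 3 adaptors of the syndecan tail. The chain-building list reached 10 CPM for 6 genes in E8.5 EryP, against 13 and 14 in E8.5 and E10.5 Endo and 11 and 12 at the first 2 stages. At E7.25 and E7.75 its highest gene was *Hs6st2*, a 6-O-sulphotransferase, at 93.6 and 104.1 CPM. The 6-O-sulphatase *Sulf1* was at 37.8 and 43.2 CPM and at most 3.43 CPM later.

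From E7.25 to E7.75, 1 of 12 chain genes was 2-fold or more higher (*Ext2*, a chain polymerase, 13.1 against 5.83 CPM) and none lower, beside 4.92% higher and 5.46% lower among all genes, with a median log2 ratio of 0.12 against 0.04. Of 4 other proteoglycans, *Col18a1*, the collagen that yields endostatin, was higher (59.8 against 14.5 CPM, log2 ratio 1.97), as was *Tgfbr3*, the TGF-beta co-receptor (101.9 against 27.0 CPM, 1.88). Neither the 2 genes of removal nor the 2 adaptors compared passed 2-fold. In the early haemato-endothelial class, 1 of 11 chain genes was higher and 1 lower at E7.25, and 1 of 15 was higher and 3 lower at E7.75. Among all genes 4.75% were higher and 3.54% lower at E7.25, and 5.42% and 8.06% at E7.75, so a single gene of 11 is close to the share over all genes. The lists had median log2 ratios of -0.20 and -0.44 against 0.01 and -0.08 over all genes. *Fam20b*, the xylose kinase, was the higher gene both times, and *Sulf1* was lower at E7.75 (25.4 against 76.2 CPM). *Tgfbr3* and *Hspg2* (perlecan) were higher in the E7.25 class, at 36.7 against 13.4 and 20.8 against 9.37 CPM.

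In endothelium, where *Gpc3* was lower at E10.5, many other genes of the pathway had higher means. Between E8.5 and E10.5 Endo, 8 of 16 chain genes were higher and 3 lower, where 21.2% of all genes were higher and 16.4% lower, with a median log2 ratio of 0.97 against 0.06. Examples are *Glce*, the C5-epimerase (75.0 against 13.3 CPM), *Ext1*, a chain polymerase (75.7 against 19.0 CPM) and *Hs6st1* (16.4 against 1.64 CPM), and *Ndst2*, *Extl3* and *Hs6st2* were the lower ones. Shares of cells did not always follow the means. At E10.5 *Glce* (54.1% against 22.8%), *Ext1* (83.6% against 55.7%) and *B3galt6* (26.2% against 16.5%) were found in more cells. *B4galt7* (34.4% against 75.9%), *B3gat3* (34.4% against 63.3%) and *Ext2* (70.5% against 77.2%) had higher means in fewer cells. *Agrn* (agrin, 57.3 against 12.3 CPM) and *Srgn* (serglycin, 62.3 against 3.21 CPM) were the proteoglycans that were higher, and *Cask*, which binds the syndecan tail, was at 113.1 against 26.8 CPM. Against E10.5 HPC, E10.5 Endo were higher for 10 of 15 chain genes and lower for 1 (30.4% and 20.4% of all genes), with a median log2 ratio of 2.02 against 0.15. Of the higher genes, *B4galt7*, *B3galt6*, *B3gat3* and *Ext2* were found in a smaller share of Endo than of HPC, and *Ext1*, *Glce* and *Ndst1* in a larger share. Perlecan stood at 207.8 against 2.08 CPM, *Col18a1* at 581 against 23.3 CPM and *Tgfbr3* at 569 against 58.8 CPM, and *Srgn* was lower at 62.3 against 240.0 CPM. At E8.5, 5 of 13 chain genes were higher in Endo than in HPC and none lower (17.9% and 10.4% of all genes, median 0.63 against -0.03), and perlecan was at 153.3 against 11.7 CPM.

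In HPC, chain genes and other proteoglycans passed 2-fold at some steps. From E8.25 to E8.5, 3 of 11 chain genes were lower and none higher, where 3.82% of all genes were lower and 2.86% higher, with a median log2 ratio of -0.46 against 0.03. From E8.5 to E9.5, 2 of 9 were higher and none lower (11.5% and 13.1% of all genes, median 0.26 against -0.03). *Tgfbr3* (36.5 against 226 CPM), *Col18a1* (43.8 against 141.9 CPM) and perlecan (2.73 against 11.7 CPM) were lower, while *Srgn*, the proteoglycan of haematopoietic granules, was higher at 108.6 against 9.66 CPM. From E9.5 to E10.5, 1 of 10 chain genes was higher and 2 lower (5.86% and 8.73% of all genes, median -0.12 against -0.01), and *Srgn* was at 240.0 CPM. In Mk between E8.5 and E10.5, 3 of 11 chain genes were higher and 2 lower (16.3% and 12.7% of all genes, median 0.43 against -0.05), with *Srgn* at 105.2 against 5.40 CPM. Between E8.5 Mk and E8.5 EryP, 3 of 10 chain genes were higher in Mk and 1 lower (14% and 8.54% of all genes, median 0.11 against -0.05).

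In Mac against E10.5 HPC, 5 of 10 chain genes were higher and 2 lower (22.4% and 24.4% of all genes, median 1.13 against -0.14). *Ndst2*, an N-deacetylase/N-sulphotransferase, had a mean of 1366 CPM in Mac, but 1 cell of 25 was at 33981 CPM and the next at 47.5 CPM. Without that cell the Mac mean was 7.49 CPM, below the 16.7 CPM of HPC, so its place among the 5 higher genes rests on 1 cell. *Ext1* (24% of Mac against 37.9% of HPC) and *Fam20b* (40% against 46.0%) were also higher on means but in fewer cells. *Xylt2* was found in more, at 68% against 21.8%. *Col18a1* was lower at 1.59 against 23.3 CPM, and *Tgfbr3* had no count in Mac. The adaptor *Sdcbp* (syntenin) was detected at 323 to 944 CPM in every population.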

How the data were processed

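The read counts were made by the authors, who captured sorted cells on the Fluidigm C1 system, prepared Nextera XT libraries, read them as paired ends on a HiSeq, aligned them to GRCm38 with Rsubread and assigned reads to Ensembl genes with featureCounts. The signal values, in CPM, were made by the authors from cells and genes that passed their scater filter, with scran size factors. Each cell of that table is its counts times 1 factor, with sums between 699615 and 4176740. All columns were mapped to a population. No reads were realigned. Identifiers, positions and exon lengths came from GENCODE M21, a later annotation on the same assembly.

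Detection meant 1 count or more. Levels were means of CPM over cells, shares had exact Clopper-Pearson 95% intervals, and ratios were log2 of mean CPM + 1 over genes with 10 CPM or more in either population. A count of 0 was given a limit of 3 cells of the total. Total counts of 483830 to 5943204 per cell set the precision. The members and lists were chosen with earlier results of these data known. Members were named in every population, pathway genes where they were past 2-fold, and similar genes as the first 3 by correlation. Alternatives were another scaling, pseudocount, filter, fold and class limit, medians, mean log values, thinning to 840000 counts (46 shallower cells left out), single captures and the removal of cells with transcripts of both sexes. Removal of the highest cell was chosen after seeing the data. The scripts were tested on simulated data. No test between populations was made. Protein sequences, the barcoding experiments and the published gene lists were not used here. Values were computed in Python 3.11.15 with scipy 1.17.1, pandas 2.3.3 and numpy 2.4.6, and plots drawn with matplotlib 3.10.9.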

Additional observations from a re-analysis of the deposited data

Results flagged for a closer look

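The signals below lie in data outside the comparisons, and each exceeds the limit that a count of 0 allows. In the table of all genes, which holds genes removed by the filter of the authors, *Gpc2* had 59 counts in 7 of 1073 captured cells, and *Gpc5*, the other glypican absent from the filtered table, had 58 counts in 5 cells. Of the *Gpc5* counts, 40 were in 1 E7.75 cell.

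Members were also present in cells that failed the filter of the authors. *Gpc3* was found in 38 of them, among which were all 12 failed E7.25 cells (19972 counts) and all 10 failed E7.75 cells (1905 counts). *Gpc1* was found in 19 failed cells, with 8 from E7.25 and 10 from E7.75. *Sdc1* was found in 26 failed cells, of which 9 were E7.75 cells and 9 were E10.5 Endo. *Gpc6*, *Sdc2* and *Sdc4* were each found in 12 failed cells, *Gpc4* in 7 and *Sdc3* in 4. In *Sdc2*, 1961 of 2023 counts came from 3 of 18 failed E8.5 EryP, a population in which 5 of 66 cells that passed had a count.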

How the results depend on the processing

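*Gpc3* kept its call and direction under all alternatives in E7.75 against E7.25 (12 alternatives), and in E10.5 against E8.5 Endo, E10.5 Endo against HPC and Mac against HPC (8 each), as did *Sdc1* in E9.5 against E8.5 HPC (8). The *Gpc4* log2 ratio of E10.5 against E8.5 Mk reversed, to -0.31 with means of log2 values and to -0.97 without the highest cell of each population. Of 848 recomputed log2 ratios, 782 kept direction and call, 16 lost and 48 gained a call, and 2 reversed. Without the filter on low values, the number of members past 2-fold became 4 in E8.5 against E8.25 HPC (1 as reported), 4 in E9.5 against E8.5 HPC (1), 3 in E10.5 against E9.5 HPC (1), 4 in E10.5 against E8.5 Endo (2), 4 in E10.5 against E8.5 Mk (1), 1 in E8.5 Endo against HPC (0), 6 in E8.5 Mk against EryP (2), 6 in E10.5 Endo against HPC (1), 5 in Mac against HPC (1) and 2 in the E7.75 class (1). With a pseudocount of 10 it was 0 in E8.5 against E8.25 HPC, in E10.5 against E8.5 Mk and in E8.5 Mk against EryP. At 3-fold it was 0 in E8.5 against E8.25 HPC and 1 in E8.5 Mk against EryP. Plain CPM and thinning each gave 0 in E10.5 against E8.5 Mk. Means of log2 values gave 2 in E9.5 against E8.5 HPC, 1 in E10.5 against E8.5 Endo, 1 in E8.5 Endo against HPC, 0 in the E7.25 class and 2 in the E7.75 class. Without cells with transcripts of both sexes it was 0 in E8.5 against E8.25 HPC, 2 in E9.5 against E8.5 HPC, 1 in E8.5 Endo against HPC, 3 in E10.5 Endo against HPC, 3 in E10.5 against E8.5 Endo and 0 in the E7.25 class. Without the highest cells it was 0 in E10.5 against E9.5 HPC, 2 in both E10.5 Endo and Mac against HPC, and 3 in both E10.5 against E8.5 Endo and E8.5 Mk against EryP (2 each as reported, *Sdc1* gained), while in E10.5 against E8.5 Mk it stayed at 1 with *Gpc3* in place of *Gpc4*. With means of log2 values *Gpc3* likewise took the place of *Gpc4* there, and of *Sdc4* in E10.5 against E9.5 HPC. Single captures gave 1 for E7.75 lane 8 against E7.25 lane 7 (2 as reported), 3 for lane 7 against lane 6, 2 in the E7.25 class on lane 6 and on lane 7, 2 in the E7.75 class on lane 7 and 0 on lane 8. By Spearman correlation, 3 of the 9 similar genes were shared. Apart from those that follow from fewer cells, a higher threshold or more genes compared, the cause was not tested.

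No paired analysis was possible because each population is 1 sample and the number of a cell in the labels names that cell only. Counting a level as moved when it changed by more than 1.5 times or became 0, 82 levels moved when the median replaced the mean and 51 without the highest cell, mainly where few cells had counts. Leaving out replicates was not possible with 1 sample a population. Depth limits shares in E10.5 HPC and E7.75, where 16 of 87 and 18 of 140 cells held under 840000 counts, and the 3 E10.5 EryP and 25 Mac set wide intervals.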

Other observations

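Sex transcripts divided the E7.75 captures. Of the 53 cells of the capture on lane 7, 52 had Y-linked counts without *Xist* and none had *Xist* alone, whereas on lane 8, 43 of 87 cells had *Xist* alone and 4 had Y-linked counts alone. E7.25 captures did not divide in this way, with 23 and 45 cells with Y-linked counts alone and 4 and 4 with *Xist* alone. The *Gpc3* mean differed little between the E7.75 captures (483 and 509 CPM), while *Sdc2* was at 57.8 and 28.3 CPM and *Sdc4* at 128.05 and 82.3 CPM.

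*Gpc4* had no count in the 53 E7.75 cells on lane 7, and 5 of the 87 cells on lane 8 had counts.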
